A study of Zea mays with 19 samples.

Results

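The small RNAs of germinating maize embryos were compared between 53 h and 6 h after imbibition, the uptake of water that starts germination, in the late-germinating inbred line Yu537A. The comparison takes in 6 of the 18 small RNA libraries of the series that belong to a group: 3 of Yu537A at 53 h and 3 of Yu537A at 6 h, chosen by line, time and the absence of a gibberellin label. Each library was made from the embryos of 5 individual seeds that had been harvested mature. The labels mention a gibberellin pretreatment of Yu537A seeds (GA3, 400 mg/L) and do not tie it to groups. Since the design text calls only the GA3 group treated, the 53 h and 6 h groups were taken as untreated. The groups set beside them are Yu537A at 78 h, Yu537A with GA3 at 53 h, and the early-germinating line Yu82 at 53 h and 6 h, each with 3 libraries and no further allele or agent. Both lines descend from the population cultivar Yuzong5, and each stands for its germination type alone. The replicates are biological, per the series' design, and Yu537A seeds are described in the labels as of lower vigor.

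A plant miRNA is cut from the stem of a hairpin transcript by a Dicer-like enzyme as a short duplex. One strand, the guide, is loaded into an ARGONAUTE protein and directs cleavage of matching transcripts, and the other, the passenger or star strand, is as a rule rare. In Arabidopsis, the long hairpins of miR159 and miR319 are cut several times, beginning near the loop, before the miRNA duplex is released. The miR159 guide targets GAMYB transcription factors, which in cereal grains act downstream of gibberellin, miR319 targets TCP transcription factors, and miR166 targets class III HD-ZIP transcription factors that pattern meristems and leaves.

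Deposited miRNA counts, summed per sequence, came to 818228, 388447 and 98944 in the 53 h libraries, against 105730, 494694 and 158513 in the 6 h libraries. These libraries listed 375, 229 and 108 sequences at 53 h, against 113, 214 and 124 sequences at 6 h. Replicate 3 at 53 h and replicates 1 and 3 at 6 h are called the 3 shallow libraries here. On the first principal component of the 6 libraries, which held 45.9% of the variance, these 3 lay on one side and the deeper 3 on the other, so the first component followed depth and not time. Of 21 nt, the usual miRNA length, were 89.5% to 92.0% of the counts at 53 h and 76.8% to 91.7% at 6 h. The lowest share was that of replicate 3 at 6 h, where 20.3% of counts were of 20 nt and miR408 held 19.6% of the library. No miRNA that marks embryos alone is known with confidence, so the embryo label was not checked. Taken here as triggers of phased siRNAs in reproductive tissue were 5 sequences named after miR2118 (4) and miR482 (1). Of these, 2, 3 and 1 were listed at 53 h, with 78, 101 and 14 counts (0.00953% to 0.0260% of a library). At 6 h, 0, 1 and 1 of them were listed, with 0, 71 and 37 counts (at most 0.0233%). Those with maize names, zma-miR2118b and zma-miR2118d, had 0 counts in each of the 6 libraries. The 19 nt osa-MIR2118e-p3_2ss13TA19CT, named after a rice hairpin, had 70, 63 and 14 counts at 53 h. At 6 h it had 0, 71 and 37 counts, which are all the counts of the 5 at that time. Its deposited precursors are also those of mtr-MIR2592ay-p5_2ss6AG17CG, a name of another family, and lie apart from that of zma-miR2118b. Whether it belongs to miR2118 was not tested, so its counts are no measure of reproductive tissue.

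Of the 524 sequences of the table, 405 were listed in at least 1 of the 6 libraries and 82 in all of them. Exactly 5 were listed in every 53 h library and in no 6 h library, which is 1.23% of the 405, and 0 showed the opposite. All 5 are fragments of the hairpins of miR159 and miR166 other than the known guide strands. They are shown first, below them the 2 guide strands made by the same hairpins, then 2 further sequences on which results turn. Bases 2 to 8, the seed that leads target pairing, are in capitals, with T for U as in the deposited table:
zma-miR159a-5p_R-1: gAGCTCCTatcattccaatg
zma-MIR159f-p5: cGCTGCTCgttcatggttccc
zma-MIR159h-p3: tTTGCATGaccgaggagctgc
zma-miR166a-5p: gGAATGTTgtctggctcgggg
zma-miR166b-5p: gGAATGTTgtctggttcaagg
zma-miR159a-3p (guide): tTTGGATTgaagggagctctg
zma-miR166a-3p (guide): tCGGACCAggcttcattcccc
zma-MIR319b-p5: aGCTGCCGactcattcaccca
ppt-miR894_L-3R+1: tTCACGTCgggttcacca
In these names a suffix such as R-1 or L-3R+1 gives the bases missing or added at the right or left end against the database entry, and p5 or p3 marks a stretch of a known hairpin that has no mature name of its own. The 2 miR166 fragments share the seed GAATGTT. The 3 miR159 fragments have 3 different seeds, none of them that of the guide.

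The 3 miR159 fragments and the miR159a guide all match 1 deposited hairpin, zma-MIR159a, with 0 mismatches. The hairpin is 246 bases long and lies at chr8:10753073-10753318 on the plus strand, in the coordinates of the deposited table, whose genome build no source here names. It is shown because the places of the 4 fragments, in capitals, are what the next values turn on:
zma-MIR159a: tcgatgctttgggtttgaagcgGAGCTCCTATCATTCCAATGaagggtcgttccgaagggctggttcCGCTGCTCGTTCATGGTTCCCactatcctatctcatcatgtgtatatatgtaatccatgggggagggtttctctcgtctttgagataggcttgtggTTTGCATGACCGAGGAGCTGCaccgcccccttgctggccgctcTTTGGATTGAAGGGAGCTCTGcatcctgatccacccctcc
Counted from the hairpin's 5′ end, zma-miR159a-5p_R-1 takes bases 23 to 42 and the guide takes bases 207 to 227. In the deposited fold, 15 of the 20 bases of zma-miR159a-5p_R-1 pair with the guide, so they are the opposite strands of the miRNA duplex. Nearer the loop, zma-MIR159f-p5 takes bases 68 to 88 and zma-MIR159h-p3 bases 164 to 184, and 12 of the 21 bases of zma-MIR159f-p5 pair with zma-MIR159h-p3. Between the fragments lie 25 bases on the 5p side and 22 on the 3p side. The same reads can come from sister hairpins. Over 9 deposited MIR159 hairpins, an exact match was found on 1 for zma-miR159a-5p_R-1, 2 for zma-MIR159f-p5, 7 for zma-MIR159h-p3 and 5 for the guide. The counts of the last 3 can therefore be sums over several genes.

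zma-miR159a-5p_R-1, the star strand of miR159a, had 146, 560 and 124 counts at 53 h, against 0, 0 and 0 at 6 h. Every 53 h library held it, also the one of 98944 counts, while the 6 h library of 494694 counts listed none. Scaled between libraries by the trimmed mean of M-values (TMM) and given as CPM, counts relative to a common library size, its level averaged 991 ± 605 CPM at 53 h (SD, n = 3). The smallest count listed for any sequence was 2 to 4 in each of the 6 libraries, and a sequence listed at 0 was not shown to be absent. Set against 4 counts per 6 h library, its level was at least 34.3-fold higher at 53 h, and at least 17.1-fold higher against 8 counts. In the edgeR quasi-likelihood test over all 219 sequences that passed a filter on low counts, its adjusted p was 1.31e-04. Sequences called by this test, at an adjusted p under 0.05, were 3 higher (1.37% of 219) and 1 lower (0.457%). An adjusted p under 0.05 held for zma-miR159a-5p_R-1 in all 15 alternative fits (highest 0.0225).

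Of the inner duplex of the hairpin, the 5p strand zma-MIR159f-p5 had 15, 102 and 18 counts at 53 h, against 0, 0 and 0 at 6 h. Its mean level was 157 ± 115 CPM at 53 h (SD, n = 3), at least 5.42-fold above 4 counts per 6 h library (adjusted p = 0.00218, edgeR). At 6 h, 8 counts per library would average 57.9 CPM. The filter on low counts took in the other groups. With the compared groups alone in the model, zma-MIR159f-p5 did not pass that filter and was not tested. Without the 3 shallow libraries its adjusted p was 0.118, the highest over 14 alternatives, which otherwise all kept it under 0.05. The 3p strand, zma-MIR159h-p3, was rarer, with 6, 17 and 3 counts at 53 h, against 0 in each 6 h library. It did not pass (adjusted p = 0.0954, edgeR), and no fold is given because its mean level at 53 h was below that of 4 counts per 6 h library. The guide strand was present throughout: zma-miR159a-3p had 1731, 1514 and 679 counts at 53 h, against 819, 1729 and 678 counts at 6 h. Its libraries overlapped, and its level did not pass (log2 fold change -0.44, SE 0.46, adjusted p = 1.00, edgeR).

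**Figure D1:**
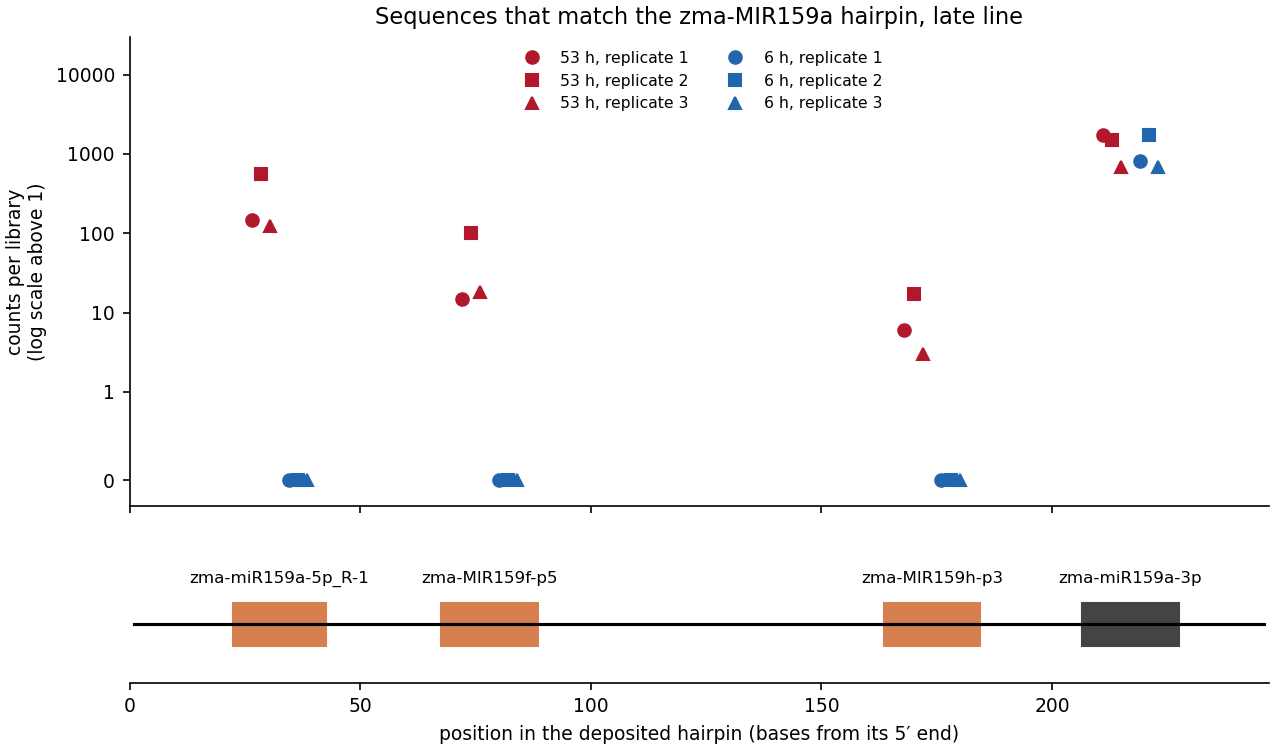
Counts per library (log scale above 1) of the 4 sequences that match the zma-MIR159a hairpin, drawn at their positions along its 246 bases, in the late line at 53 h (red) and 6 h (blue). The guide zma-miR159a-3p, in black on the map, had 678 counts or more in every library, while the other 3 had 3 to 560 counts at 53 h and 0 at 6 h.

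The star strand of miR166a, zma-miR166a-5p, had 18, 141 and 41 counts at 53 h, against 0, 0 and 0 at 6 h. Its level averaged 271 ± 206 CPM at 53 h (SD, n = 3), at least 9.35-fold above 4 counts per 6 h library (adjusted p = 0.00848, edgeR). At 6 h, 8 counts per library would average 57.9 CPM. With the compared groups alone in the model, zma-miR166a-5p too did not pass the filter on low counts and was not tested. The call ended when any 1 of the 6 h libraries was left out (adjusted p = 0.0518 without replicate 1, 0.0788 without replicate 2 and 0.0762 without replicate 3) and without the 3 shallow libraries (0.393, the highest over 14 alternatives, lowest 7.10e-06). zma-miR166b-5p, a star strand of the hairpins MIR166b and MIR166d, had 67, 61 and 11 counts at 53 h, against 0 in each 6 h library. It stood just outside the threshold (adjusted p = 0.0527, edgeR) at 134 ± 19.4 CPM at 53 h (SD, n = 3). On the zma-MIR166a hairpin of 213 bases, zma-miR166a-5p takes bases 6 to 26 and the guide bases 189 to 209, the outer duplex alone. That guide, zma-miR166a-3p, was the most abundant sequence of all and had 514220, 221267 and 58372 counts at 53 h, against 67537, 280250 and 73195 counts at 6 h (log2 fold change 0.04, SE 0.41).

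**Figure D2:**
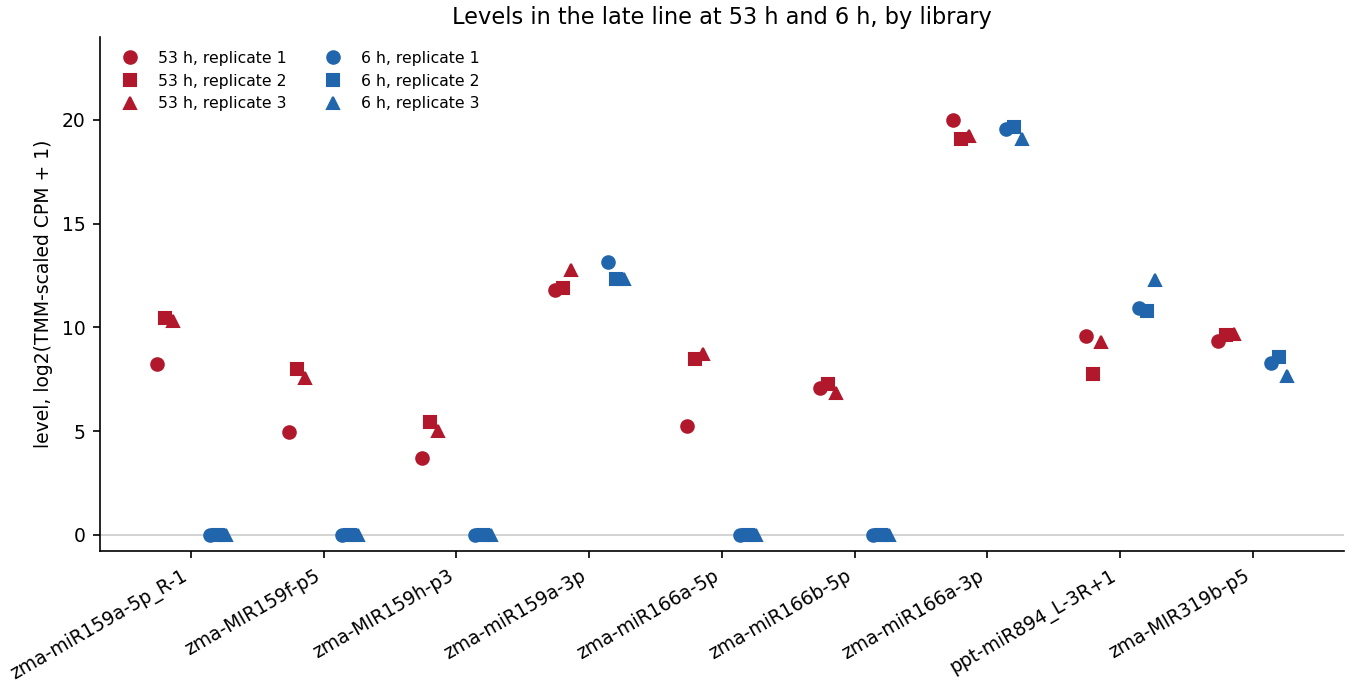
Level of 9 sequences in each library, as log2 of TMM-scaled CPM plus 1, in the late line at 53 h (red, left of each pair) and 6 h (blue, right). The 5 fragments of the miR159 and miR166 hairpins stood above 0 in all 3 libraries at 53 h and at 0 in all 3 at 6 h, while both guides overlapped between the times.

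A share within a family does not depend on the scaling between libraries. Sequences of the 5p arm made up 5.51%, 24.5% and 14.5% of all miR159 counts at 53 h, against 0%, 0% and 0% at 6 h. The means were 14.8 ± 9.48% at 53 h and 0% at 6 h (SD, n = 3 each), and the groups did not overlap. Both families were taken up because their 5p sequences were listed at 53 h and not at 6 h, so this separation was fixed by the choice and these shares are a description with no test. At 6 h, 4 counts would be 0.418%, 0.195% and 0.488% of the miR159 counts. In miR166 the 5p arm was far rarer, with 0.0182%, 0.0948% and 0.0878% of the family's counts at 53 h, against 0% in each 6 h library (means 0.0669 ± 0.0423% and 0%, SD, n = 3 each). Per 100 counts of the guide zma-miR159a-3p, zma-miR159a-5p_R-1 had 8.43, 37.0 and 18.3 counts at 53 h. At 6 h the listing minimum of 4 counts would give 0.488, 0.231 and 0.590 per 100 counts of the guide.

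The other 4 groups took no part in choosing these 5 sequences. In the early line all 5 were also listed in every 53 h library and in no 6 h library. The early line had 8 such sequences (2.48% of the 323 it listed), so the shared 5 are 5 of the 5 in the late line and 5 of the 8 in the early line. Over both lines, none of the 6 libraries at 6 h listed any of the 5. Of the 12 libraries at 53 h or 78 h, all listed 4 of them, and 11 listed zma-miR166b-5p. Both tallies include the late-line libraries at 6 h and at 53 h, 3 each, whose listing was fixed by the choice. The library without zma-miR166b-5p was replicate 3 at 78 h. zma-miR159a-5p_R-1 stood at 725 ± 494 CPM at 78 h, 1312 ± 290.0 CPM with GA3 at 53 h and 1407 ± 245 CPM in the early line at 53 h (SD, n = 3 each). For zma-MIR159f-p5 the levels were 295 ± 78.3 CPM at 78 h, 279 ± 52.5 CPM with GA3 and 623 ± 109 CPM in the early line at 53 h. The late-line values at 78 h and with GA3 are given as levels and were not tested against 53 h or 6 h here, since those comparisons share libraries with this one. Since both lines stood at 0 at 6 h, a difference between the lines in the change of these 5 sequences could not be estimated.

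**Figure D3:**
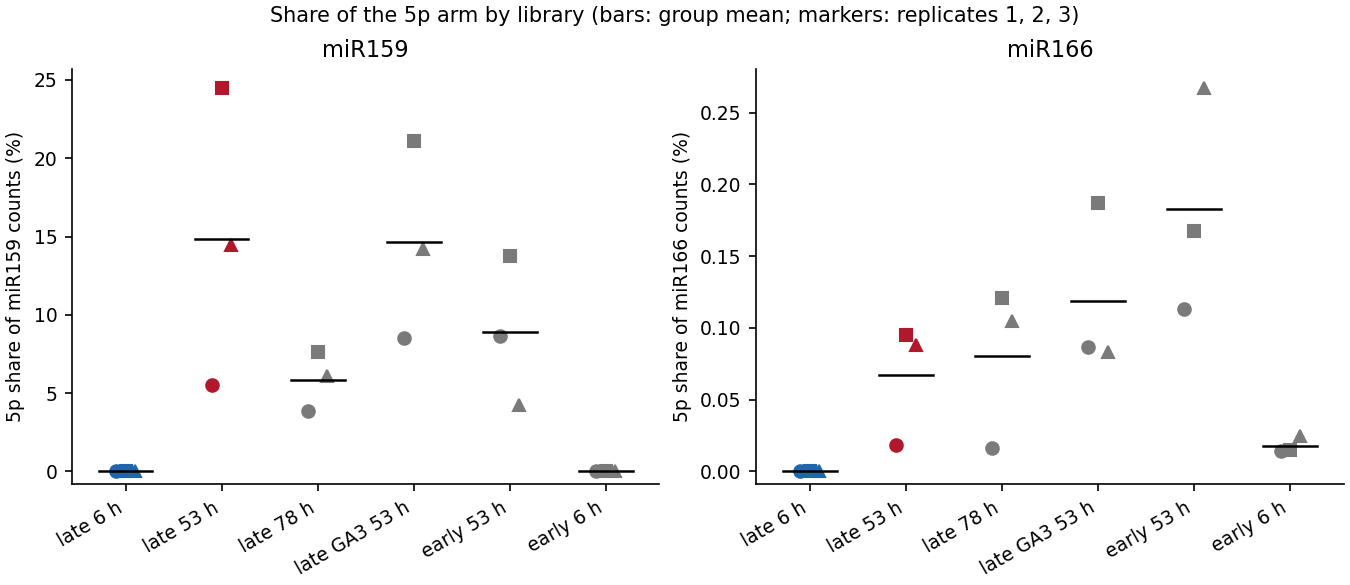
Share of each family's counts that lay on the 5p arm, in percent, for miR159 and miR166 in each library of the 6 groups, with a bar at the group mean. In miR159 the share was 0% in all 6 libraries at 6 h of both lines and 3.85% or more in all later ones; in miR166 it was 0% in the late line at 6 h, at most 0.0249% in the early line at 6 h and between 0.0164% and 0.267% later.

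In the family of miR319, whose guide differs from that of miR159 by a few bases, 1 hairpin fragment stood just outside the threshold. zma-MIR319b-p5 had 318, 312 and 80 counts at 53 h, against 28, 127 and 27 counts at 6 h. On the zma-MIR319b hairpin of 213 bases it takes bases 67 to 87, while the guide zma-miR319a-3p_R+1 takes bases 175 to 195 and pairs with bases 21 to 40. It is thus not the star strand but lies nearer the loop, as zma-MIR159f-p5 does on its hairpin. Its level was 749.7 ± 93.9 CPM at 53 h and 297 ± 86.6 CPM at 6 h (SD, n = 3 each), without overlap, and it did not pass (log2 fold change 1.33, SE 0.35, adjusted p = 0.0527, edgeR). Unlike the miR159 fragments it had reads in every 6 h library. The corresponding fragment name of the sister hairpin, zma-MIR319a-p5, had 391, 146 and 18 counts at 53 h, against 49, 222 and 24 counts at 6 h (log2 fold change -0.03), with overlap between the times. In the early line zma-MIR319b-p5 stood at 2859 ± 251 CPM at 53 h and 2606 ± 65.3 CPM at 6 h (SD, n = 3 each). The difference of the changes, late minus early, was 1.19 on the log2 scale (SE 0.48, unadjusted p = 0.0243, adjusted p = 0.576, edgeR).

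The 1 sequence that fell was ppt-miR894_L-3R+1, of 18 nt, which carries the name of a moss miRNA. It was deposited without a position in the maize genome, so no maize hairpin can be named for it here. ppt-miR894_L-3R+1 is called by its deposited name and family below. It had 379, 85 and 61 counts at 53 h, against 171, 608 and 671 counts at 6 h. Scaled, these are 769, 212 and 629.8 CPM at 53 h, against 1923, 1787 and 5042 CPM at 6 h, so the times did not overlap and replicate 3 at 6 h was far the highest. The level was 537 ± 289.7 CPM at 53 h and 2917 ± 1841 CPM at 6 h (SD, n = 3 each; log2 fold change -2.44, SE 0.50, adjusted p = 0.00848, edgeR). Its share of the library was 0.0433 ± 0.0201% at 53 h and 0.236 ± 0.163% at 6 h. The call rested on single libraries. It ended without replicate 3 at 6 h (-1.65, adjusted p = 0.146), without replicate 1 at 53 h (0.0515) or replicate 2 at 53 h (0.0949), with the compared groups alone in the model (0.311) and without the 3 shallow libraries (-1.45, 0.887, the highest over 15 alternatives, lowest 4.63e-05). Among 48 families, 4 had an unadjusted p under 0.05 (8.33%) and miR894 alone passed (2.08%, log2 fold change -2.39, SE 0.56, adjusted p = 0.0226, edgeR). The miR894 family holds ppt-miR894_L-3R+1 alone, so this call rests on the same counts and is no further result. The family call too ended without replicate 3 at 6 h (adjusted p = 0.180) or either of replicates 1 (0.0762) and 2 (0.194) at 53 h.

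In the early line ppt-miR894_L-3R+1 stood at 731 ± 119 CPM at 53 h and 1166 ± 272 CPM at 6 h (SD, n = 3 each; log2 fold change -0.67, adjusted p = 0.571, edgeR). The difference of the changes, late minus early, was -1.77 (SE 0.68, unadjusted p = 0.0187, adjusted p = 0.576). It thus did not pass over all sequences. In the late line at 78 h the level was 1048 ± 205 CPM, and with GA3 at 53 h it was 351 ± 30.4 CPM (SD, n = 3 each).

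**Figure D4:**
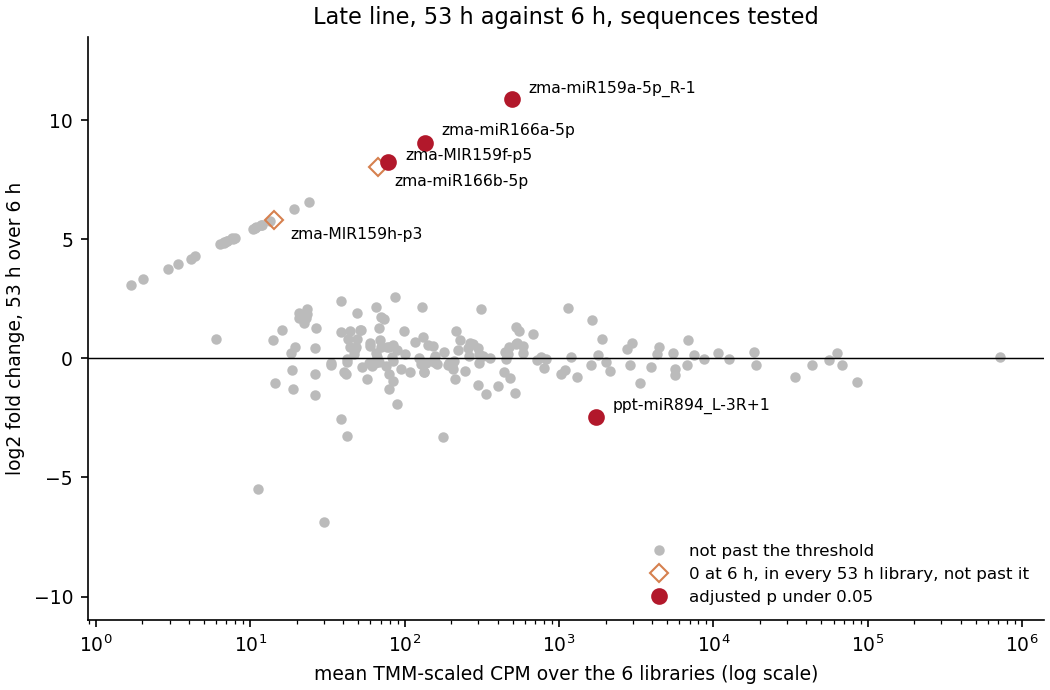
Log2 fold change, 53 h over 6 h, against the mean level over the 6 libraries (TMM-scaled CPM, log scale) of the tested sequences, without the 26 that stood at 0 in all 6. The 3 sequences that rose and ppt-miR894_L-3R+1, which fell, are in red. Fitted changes of sequences at 0 at 6 h, the rising line of points at the upper left, depend on the model's small added count and are no measure of size.

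Past these 4, 16 sequences had an unadjusted p under 0.05 (20 in all, 9.13%: 14 higher, 6.39%, and 6 lower, 2.74%). The libraries of the 2 times did not overlap for 16 sequences (7.31%), of which 13 were higher (5.94%) and 3 lower (1.37%). None of the following passed. peu-MIR2916-p5_1ss5AG, named after a poplar hairpin, had 613, 1240 and 116 counts at 53 h, against 18, 106 and 101 counts at 6 h. Its log2 fold change was 2.12 (SE 0.74, adjusted p = 0.262, edgeR) without overlap in CPM, and that of its partner peu-MIR2916-p3_1ss3AG was 1.61 (SE 0.76, adjusted p = 0.491) with overlap. osa-MIR5083-p3, named after a rice hairpin, had 945, 898 and 235 counts at 53 h, against 529, 1013 and 621 counts at 6 h (-1.05, SE 0.38, adjusted p = 0.262), also without overlap in CPM. In the early line the log2 fold changes were 2.82 for peu-MIR2916-p5_1ss5AG and -1.36 for osa-MIR5083-p3 (adjusted p = 0.0622 and 0.0734, edgeR).

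Several others with an unadjusted p under 0.05 rest on few libraries. The unnamed candidates PC-5p-8760_411 (9, 19 and 0 counts) and PC-3p-20816_161 (30, 8 and 0 counts) were listed in the 2 deep libraries at 53 h and in none at 6 h. mtr-MIR2603-p3_2ss9AC17AC (9 counts) and bdi-miR5054_1ss10TA (24 counts) were listed in replicate 3 at 6 h alone. mtr-MIR2592bj-p3_2ss12TC19AT had 9, 28 and 0 counts at 53 h, against 9, 0 and 117 counts at 6 h. In 4 of these 5 the listed libraries are the deepest at 53 h or the one that stood apart at 6 h.

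Most abundant sequences, guides and others, had small log2 fold changes between the times. Over the 6 libraries, 37 sequences averaged 1000 CPM or more, of which 1 passed, ppt-miR894_L-3R+1, and 33 had log2 fold changes within 1 of 0. Over all 219 tested, 4 passed and 148 were within 1 of 0, among them the 26 that stood at 0 in all 6 libraries. The median SE was 0.59 for the 37 and 1.47 for all 219. The median of the 37 was -0.07, against 0.09 for all 219. miR166 held 60.5 ± 2.98% of the counts at 53 h and 56.2 ± 9.14% at 6 h (SD, n = 3 each). The share of miR444, which in grasses is directed at MADS-box transcripts, was 7.09%, 7.53% and 7.08% at 53 h, against 6.27%, 6.37% and 6.17% at 6 h, without overlap (two-sided exact permutation p = 0.1, the smallest possible, adjusted p = 1.00 over 54 families). In TMM-scaled CPM the miR444 family overlapped, at 92509, 79232 and 76645 CPM at 53 h, against 71564, 80204 and 64793 CPM at 6 h (log2 fold change 0.20, SE 0.25, unadjusted p = 0.438, edgeR). Its guide zma-miR444a had a log2 fold change of 0.24 (SE 0.36). miR319 held 4.69 ± 0.544% at 53 h and 4.52 ± 1.43% at 6 h, and miR159 0.682 ± 0.318% at 53 h and 0.613 ± 0.259% at 6 h. Of these 54, among which the pooled unnamed candidates are counted as a family, 3 reached the smallest possible p (miR444, miR894 and miR6253).

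**Figure D5:**
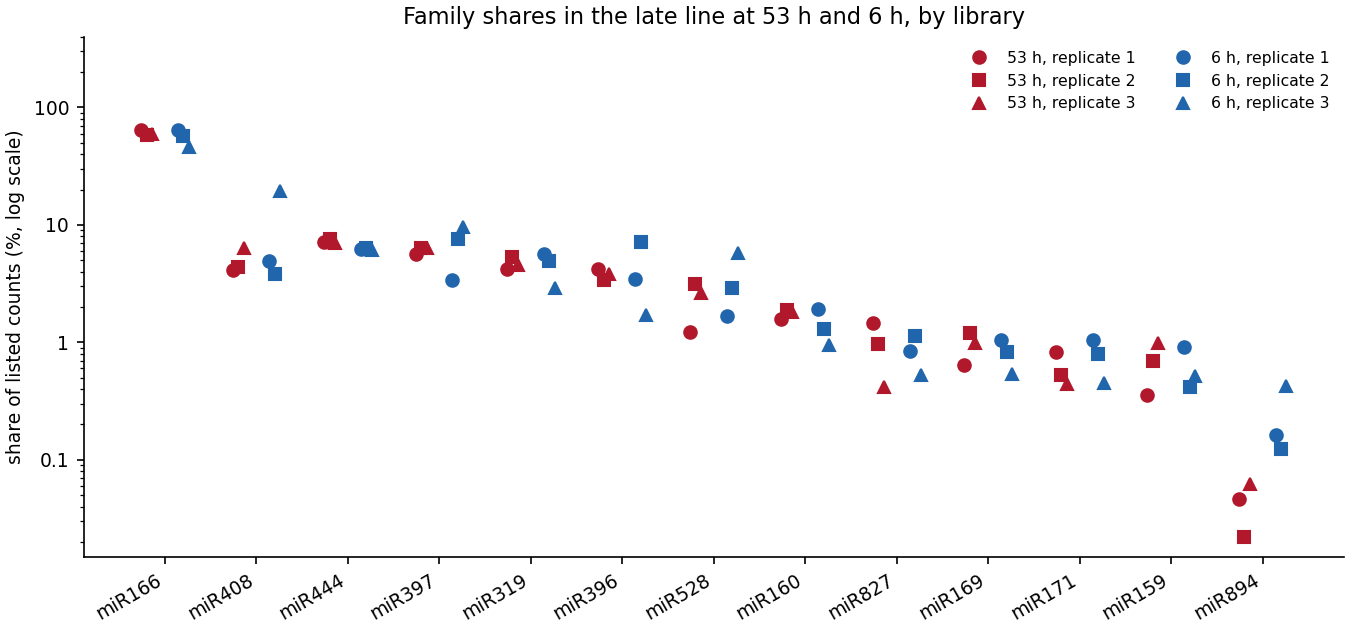
Share of each library's counts (percent, log scale) of the 12 families with the highest mean share and of miR894, in the late line at 53 h (red, left of each pair) and 6 h (blue, right). Libraries overlapped between the times for 11 of the 12 large families and did not for miR444, higher at 53 h, and miR894, lower at 53 h. In TMM-scaled CPM miR444 overlapped.

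Grouped by what the families are known to target, few lists held a called sequence. Of the 12 tested sequences with GAMYB or TCP targets (15 listed), 2 rose, the miR159 fragments zma-miR159a-5p_R-1 and zma-MIR159f-p5, and 10 did not pass; over all sequences tested 3 of 219 rose (1.37%). The median log2 fold change was 0.87 in this list and 0.09 over all 219. Of the 28 tested in the meristem and growth factor list (41 listed; miR164, miR166, miR171, miR394 and miR396), 1 rose, zma-miR166a-5p, and 27 did not pass (median 0.28), beside the same 1.37% over all tested. zma-miR396a-5p, which targets growth-regulating factors, had 30002, 10481 and 2964 counts at 53 h, against 3229, 30494 and 2254 counts at 6 h (log2 fold change -0.28, SE 0.79). The members that rose in both lists are star and hairpin fragments and not the strands known for these targets.

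The remaining lists had no call outside miR894. All 8 tested sequences of the phase change list (16 listed), whose miR156 targets SPL transcription factors of juvenile growth, had positive log2 fold changes with a median of 0.98, and none passed. Its most abundant member, zma-miR156a-5p, had 4744, 1398 and 249 counts at 53 h, against 166, 2531 and 240 counts at 6 h (0.50, SE 0.72), and in CPM the times overlapped. Of the 8, 4 are 3p and 2 are 5p sequences of miR156, which can share hairpins. Over all 219 tested the median was 0.09. Of the 15 copper and redox sequences tested (18 listed), from families that target laccases, plantacyanins and superoxide dismutases, 12 had negative log2 fold changes, with a median of -0.27, and none passed; zma-MIR397b-p3 among them turned positive with library totals and in voom. zma-miR408a_L-1 had 32859, 16557 and 6181 counts at 53 h, against 5148, 18404 and 30522 counts at 6 h (-0.99, SE 0.73, adjusted p = 0.953, edgeR). Its level in replicate 3 at 6 h, 229338 CPM, was over 3 times that of any other of the 6 compared libraries, and without that library the log2 fold change was 0.22. zma-miR528a-5p was also highest in that library, at 19295, 29647 and 26019 CPM at 53 h, against 19311, 41476 and 67775 CPM at 6 h (-0.78, SE 0.59).

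In the auxin list 15 sequences were tested (24 listed) and none passed (median 0.19). zma-miR160a-5p, directed at auxin response factors, averaged 20013 ± 4421 CPM at 53 h and 16666 ± 5326 CPM at 6 h. Directed at auxin receptors, zma-miR393a-5p_R-1 averaged 5894 ± 1142 CPM at 53 h and 5119.8 ± 2161 CPM at 6 h (SD, n = 3 each). Of 16 NF-YA targeting miR169 sequences (22 listed) none passed (median 0.54), and zma-miR169o-5p_R-1 averaged 8634 ± 255 CPM at 53 h and 8871 ± 2545 CPM at 6 h. In the small RNA pathway list 4 were tested (5 listed) and none passed. zma-miR168a-5p, which targets ARGONAUTE1, averaged 1448 ± 169 CPM at 53 h and 1760.0 ± 197 CPM at 6 h. Its star strand zma-miR168b-3p_R+1 was listed at both times, at 652 ± 65.9 CPM at 53 h and 419 ± 246 CPM at 6 h (0.63, SE 0.46). The 3 phosphate and sulphate sequences, the 3 of the reproductive trigger list, the 67 unnamed candidates and the other 47 named sequences had no call. zma-miR827-3p, a phosphate-related miRNA, averaged 11475 ± 9234 CPM at 53 h and 9787 ± 4096 CPM at 6 h.

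Whether the change from 6 h to 53 h differed between the lines was tested for each sequence as the difference of the 2 changes, which share no library. Of 219 sequences 0 passed in edgeR (0.0%), DESeq2 or limma voom, and 17 had an unadjusted p under 0.05 (7.76%). Each line alone had 4 calls (1.83%). The called sequences zma-miR159a-5p_R-1, zma-MIR159f-p5 and zma-miR166a-5p also passed in the early line, where they were at least 81.3, 36.0 and 21.5 times the level of 4 counts per 6 h library. In early-line libraries at 6 h, 4 counts averaged 17.3 CPM and 8 counts 34.6 CPM. zma-miR159a-3p, the guide, had a log2 fold change of -0.44 in the late line and 0.54 in the early line, and the difference did not pass (-0.98, SE 0.66, unadjusted p = 0.155).

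A degradome library, which captures the 5′ ends of cleaved transcripts and stands in no group, lists sites where a small RNA could have guided a cut. In the authors' deposited table the 5 fragments listed at 53 h and not at 6 h had 23 alignments (zma-miR159a-5p_R-1), 58 (zma-MIR159f-p5), 5 (zma-MIR159h-p3), 26 (zma-miR166a-5p) and 51 (zma-miR166b-5p), and 0 of these had a read at the expected position. The guides did have such sites in the authors' deposited table. zma-miR159a-3p had 18 sites with reads, 5 of them of category 0 or 1, in which the site has the most reads of its transcript. Sites are counted per transcript, and these 5 take in 2 annotated genes. One was at position 959 of Zm00001d036551 with 13 reads (the authors' deposited table, p = 0.0118), and one at position 1315 of Zm00001d043131 with 40 reads (p = 0.102). Both genes are annotated there as DNA binding. zma-miR166a-3p had 74 sites with reads, 35 of them of category 0 or 1, and these 35 take in only 4 annotated genes. Among them was position 988 of Zm00001d008869 with 7 reads (the authors' deposited table, p = 0.164), annotated as DNA and lipid binding. ppt-miR894_L-3R+1 had 16 sites with reads, 0 of category 0 or 1, and zma-MIR319b-p5 had 0 alignments. No label used here gives the library's line or time, so these sites belong to neither 53 h nor 6 h.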

How the data were processed

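Small RNA libraries (TruSeq kits, single-end reads of an Illumina instrument, per the labels' protocols) were deposited in units of expected counts per precursor entry, of which 38.6% of values were whole (within 0.01) and 88.6% once summed per sequence. Beside them the authors deposited a normalised signal, not used, a multiple of these counts that is fixed within a library. The degradome table holds, per the file headers, read counts per site, a signal, a p-value, a score (the alignment penalty) and an other measure, the category. Alignment tools and build: not given in the sources used. Empty lines (9 for miRNAs, 5176 for the degradome) were not analysed here. The 782 entries were summed to 536 sequences and rounded, and 12 with counts proportional to another's in every library were merged, leaving 524 (96 named in maize, 147 in other species, 281 candidates).

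The test was edgeR 4.0.16 in R 4.3.3 (TMM, minimum count 10, 1 mean for each of the 6 groups over 18 libraries, two-sided quasi-likelihood F test), with Benjamini-Hochberg adjustment over 219 sequences or 48 families. The filter used all 18 libraries, and 26 of the 219 stood at 0 in the 6 compared. Each SE is the fold change (log2) divided by the root of F. DESeq2 1.42.0 and limma 3.58.1 (voom) served as alternatives. Exact tests used scipy 1.17.1, plots matplotlib 3.10.9, and tables numpy 2.4.6 and pandas 2.3.3, in Python 3.11.15. The scripts were tested on simulated data. Named sequences are those past the threshold, up to 8 per direction with an unadjusted p under 0.05 and at least 10 CPM, the 2 of highest mean level in each list and the 10 highest overall. Outside this rule, zma-MIR319a-p5, zma-miR168b-3p_R+1 and the sequences under other observations were chosen with their values in view. The comparison and the lists were chosen with earlier results of these data known. Reads carry no molecular identifiers, so copies made by amplification cannot be told apart in the counts. The spread used in the tests was estimated between the 3 libraries of each group.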

Additional observations from a re-analysis of the deposited data

How the results depend on the processing

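The 3 higher and 1 lower calls became 5 and 2 without the filter on low counts, 5 and 1 in DESeq2, 1 and 0 with the compared groups alone in the model, and 1 and 0 without the 3 shallow late-line libraries, a setting chosen after seeing the data. In total the 4 calls became 7 without the filter and 1 in each of the last 2 settings. The 1 family called, lower, became 0 without the filter, with the compared groups alone and without the 3 shallow libraries. With 1 library left out in turn there were 2 to 4 sequences called (0 to 1 lower), 0 to 2 families (0 to 1 higher, 0 to 1 lower), and 0 to 5 differences between the lines, all 5 higher and all without early-line replicate 2 at 53 h. zma-miR166b-5p passed with RLE scaling, library totals, voom, DESeq2 and no filter, and zma-MIR319b-p5 in DESeq2 and without replicate 1 at 53 h. With the compared groups alone, zma-MIR159f-p5 and zma-miR166a-5p did not pass the filter.

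With the replicate number as a block the same 4 sequences were called (3 higher, 1 lower). Residuals of like-numbered libraries correlated at -0.176, 0.149 and 0.165, and 1 of 3 libraries matched its own number best, so the numbers were not taken as pairs.

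The median log2 fold change of all sequences tested, 0.09, was 0.26 in voom, 0.21 with the block, 0.47 without the filter and 0.41 without the 3 shallow libraries. No sequence whose sign turned had passed in the reported fit, and the cause was not tested. Without the 3 shallow libraries the log2 fold change was 6.75 for mtr-MIR2592bj-p3_2ss12TC19AT, 0.18 for zma-miR319a-3p_R+1, 0.28 for zma-miR169o-5p_R-1, 0.43 for zma-miR408a_L-1, 0.18 for osa-miR444f, -0.14 for zma-miR827-5p_L+1 and 0.083 for zma-miR168a-5p. With library totals it was 0.041 for zma-miR319a-3p_R+1, 0.12 for zma-miR169o-5p_R-1, 0.022 for osa-MIR2118e-p3_2ss13TA19CT and 0.075 for zma-MIR397b-p3. With the compared groups alone it was 0.040 for zma-miR319a-3p_R+1, 0.12 for zma-miR169o-5p_R-1, -0.013 for zma-miR827-5p_L+1 and 0.043 for zma-MIR397b-p3. In voom it was 0.0034 for zma-miR169o-5p_R-1, 0.66 for osa-MIR2118e-p3_2ss13TA19CT and 0.044 for zma-MIR397b-p3. With the replicate block it was -0.23 for zma-miR827-5p_L+1, 0.22 for osa-MIR2118e-p3_2ss13TA19CT, -0.011 for PC-5p-5182_671 and 0.21 for zma-MIR397b-p3. PC-5p-5182_671 was at -0.039 with RLE scaling and -0.026 in DESeq2, and zma-miR169o-5p_R-1 at 0.027 with 1 entry per sequence. Without miR166 in the total, the difference of the miR397 share was 0.634 percentage points.

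Leaving out 1 library at a time, log2 fold changes ran from -0.17 to 0.30 for zma-miR319a-3p_R+1, -0.88 to 0.13 for zma-miR159a-3p, -0.058 to 0.35 for zma-miR169o-5p_R-1, -1.44 to 0.22 for zma-miR408a_L-1, -0.64 to 0.20 for zma-MIR397b-p5, -0.52 to 0.71 for zma-miR396a-5p, -0.29 to 0.66 for zma-miR827-3p, -0.91 to 1.31 for zma-miR827-5p_L+1, -0.70 to 0.75 for osa-MIR2118e-p3_2ss13TA19CT, -0.31 to 0.16 for zma-miR168a-5p, -0.35 to 0.32 for PC-5p-5182_671, -0.013 to 0.49 for PC-3p-6907_517, -1.11 to 0.0058 for zma-miR528a-5p and -0.37 to 0.43 for zma-MIR397b-p3. Differences of family shares, in percentage points, ran from -0.527 to 8.55 for miR166, -7.32 to 0.569 for miR408, -2.34 to 0.723 for miR397, -0.634 to 0.751 for miR319 and -1.47 to 1.23 for miR396.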

Other observations

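Some passenger strands of other families, chosen with their values in view, were listed at both times. zma-miR156d-3p_L+1 was listed in all 6 late-line libraries, with 434, 256 and 13 counts at 53 h, against 32, 213 and 26 counts at 6 h. zma-miR827-5p_L+1 was likewise listed in all 6, with 1312, 294 and 23 counts at 53 h, against 72, 846 and 29 counts at 6 h. zma-MIR397b-p3 had 8037, 4358 and 996 counts at 53 h, against 506, 6394 and 1879 counts at 6 h. Others were not listed at 6 h. Of 7 tested 3p sequences of miR169, 3 stood at 0 at 6 h and 6 had positive log2 fold changes, with 0 calls. The remaining sequence stood at 0 at 53 h too (log2 fold change 0). zma-miR166c-5p, a further miR166 star strand, had 10, 11 and 0 counts at 53 h in the late line, against 0 in each of its 6 h libraries. In the early line it had 0, 20 and 8 counts at 53 h, against 0, 0 and 10 counts at 6 h. Another miR166 sequence of the 5p arm, aly-MIR166a-p5_2ss13CG20AC, had 19, 13 and 20 counts in the early line at 6 h and 0 in each late-line library.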
